A study of Mus musculus with 12 samples.

Results

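The heat shock proteins and their DNAJ cochaperones were examined in Myc-CaP cells in culture and in tumors grown from them, with and without YJ1206. Members were taken by gene symbol alone, with no measured value: the HSP70 genes (Hspa), the 3 HSP90 genes (Hsp90aa1, Hsp90ab1, Hsp90b1), the small heat shock proteins (Hspb), the chaperonins and the HSP110 gene (Hspd1, Hspe1, Hsph1), the DNAJ genes of classes A, B and C, the factors Hsf1 and Hsf2, and Bag1 to Bag6. Of 40078 genes listed in either table, 78 matched, and 70 of these had at least 10 counts in all 3 libraries of a group, 64 in the cells and 70 in the tumors. The other 8 (Dnajb3, Dnajb7, Dnajb8, Dnajc6, Hspa1l, Hspb2, Hspb3 and Hspb9) fell under that minimum and are not described.

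Myc-CaP is a cell line from a prostate carcinoma of a mouse in which human MYC is overexpressed in the prostate. YJ1206 is a PROTAC, a compound that directs the kinases CDK12 and CDK13 to degradation. Cultured cells received YJ1206 at 1 μM for 24 hours or DMSO, for which the labels give no time (3 libraries each). Subcutaneous Myc-CaP tumors came from male FVB mice that were dosed orally with vehicle or with 100 mg/kg of YJ1206, 3 times per week (again 3 libraries each). All 4 groups derive from that 1 cell line, and the age of the mice is not given in the sources used here. The study's methods describe replicates as biological and independent throughout, while the labels do not tie libraries to separate cultures or animals, so p-values measure the spread between these libraries.

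HSP70 chaperones bind and release unfolded protein in cycles of ATP hydrolysis. DNAJ proteins deliver the substrate and stimulate the hydrolysis, and BAG proteins promote nucleotide release. HSP90 acts later, on clients such as kinases and steroid receptors, small heat shock proteins hold unfolding protein without ATP, and HSPD1 with HSPE1 forms the folding chamber of mitochondria. Cytosolic members are induced through HSF1 when unfolded protein accumulates in the cytosol, whereas members of the endoplasmic reticulum (ER), among them HSPA5 (BiP) and HSP90B1 (GRP94), are induced through the unfolded protein response.

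Libraries held 18198089 to 18519934 counts with DMSO, 13936905 to 14869598 with YJ1206 in cells, 15391552 to 26928377 in vehicle tumors and 18307827 to 22418672 in YJ1206 tumors. The DMSO and the YJ1206 libraries of cells are numbered in separate blocks, and a batch effect cannot be told apart from treatment there. Tumor library 3 stood apart in both tumor groups: among genes that differed between libraries 1 and 2, its level lay between theirs for 98.3% of 3336 genes in vehicle tumors and 97.4% of 1435 genes in YJ1206 tumors, against 2.18% to 7.91% when library 1 or 2 was placed between the others, and for all 17 and all 9 members concerned. Fitted as a weighted mean of libraries 1 and 2, library 3 took a weight of 0.605 on library 1 in vehicle tumors and of 0.364 in YJ1206 tumors. Whether it is a tumor independent of the other two was not settled by these values, and if it is not, the standard errors and p-values from 3 tumor libraries are too small. Tumor results are therefore given with and without library 3. The prostate epithelium marker Epcam was at 0 counts in every cell library. Leukocyte markers (12 genes) summed to at most 7.81 TPM (the transcript level scaled for gene length and library) in cells and to 74.8 to 110 TPM in tumors, so the tumor values mix carcinoma with host cells.

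Levels per length were led by HSP90, HSP70 and chaperonin genes. Hsp90ab1, the constitutive cytosolic HSP90, was highest in all 4 groups, at 2129 ± 26.1 TPM with DMSO, 3221 ± 16.8 with YJ1206 in cells, 1880 ± 35.0 in vehicle tumors and 1842 ± 25.3 in YJ1206 tumors (mean ± SD, n = 3). In DMSO cells it was followed by Hspa8, the constitutive HSP70, at 1387 ± 23.1 TPM, then by Hsp90aa1 at 1282 ± 17.4, Hspd1 at 1115 ± 20.5, Hspe1 at 791.3 ± 2.27 and Hsp90b1 at 636.3 ± 9.71, and none of these neighbours overlapped over the libraries. The ER members Hsp90b1 and Hspa5 stood higher in the order of the tumors. Hsp90b1 was the third in vehicle tumors (829.9 ± 7.51 TPM) and the second in YJ1206 tumors (1076 ± 29.5 TPM), where it overlapped Hspa8 (1006 ± 89.2 TPM). In vehicle tumors Hsp90aa1, Hspa5 and Hspd1 (664.6, 656.6 and 640.4 TPM) did not differ beyond their spread. The 7 highest members held 61.5% to 66.6% of the summed TPM of the 70 described, and the median member stood at 31.5 to 40.7 TPM. All 78 members together summed to 11985 to 12104 TPM with DMSO and 13881 to 14043 TPM with YJ1206 in cells, and to 9683 to 10642 TPM in vehicle tumors and 9275 to 9716 TPM in YJ1206 tumors. The summed level was thus above the DMSO range in all 3 YJ1206 cultures, while the tumor groups overlapped. The sum follows the most abundant members, and the median described member did not rise with it in cells. That median was 37.1 TPM with DMSO and 31.5 TPM with YJ1206 in cells, and 40.7 TPM in vehicle tumors and 33.4 TPM in YJ1206 tumors.

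Several members share sequence with other genes, which matters for reads assigned by 31-mers. In 19 described members over 10% of the 31-mers of their transcripts occur in other genes, foremost Hspa1a (70.1%) and Hspa1b (68.1%), which share most of them with each other, and Hspb1 (55.4%), Hspd1 (53.1%), Hsp90aa1 (51.5%) and Hspa8 (44.8%), which have pseudogene copies. Their values are uncertain to that extent, and Hspa1a and Hspa1b are also given as a sum.

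In cultured cells the genes listed as cytosolic stress-inducible chaperones were higher with YJ1206. The list was chosen with earlier results of these data known, so its count describes these genes and is no independent support. It also holds Hsp90ab1 and Hspa8, named above as constitutive. All 11 genes of that list (Hspa1a, Hspa1b, Hspa8, Hsp90aa1, Hsp90ab1, Hsph1, Hspb1, Dnaja1, Dnajb1, Dnajb4, Bag3) passed the test in the upward direction, with a median log2 fold change of 0.84 beside -0.02 over the 11826 genes tested. Of the 65 members tested, 42 were higher and 17 lower at an adjusted p under 0.05, where 37.8% and 38.3% of all genes were called higher and lower, so that a call in either direction was common in this experiment. The groups did not overlap for 58 of the 65 members, beside 77.5% of all genes.

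Bag3, a cochaperone that links HSP70 to autophagy, showed the clearest rise. Its level was 44.6, 46.2 and 41.9 CPM (counts scaled to the library total with TMM factors) in the DMSO libraries and 180, 190 and 189 CPM with YJ1206. The groups lay far apart, a 4.22-fold rise (log2 fold change 2.08, SE 0.04, edgeR adjusted p = 1.49e-24). Hspb1, the small heat shock protein HSP25, went from 151, 156 and 148 CPM to 338, 329 and 376 CPM (log2 fold change 1.20, SE 0.04, edgeR adjusted p = 3.83e-20).

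The stress-inducible HSP70 genes Hspa1a and Hspa1b rose together. Their summed level was 232, 231 and 230 CPM with DMSO and 450, 428 and 489 CPM with YJ1206, with log2 fold changes of 1.00 (SE 0.06) for Hspa1a and 0.97 (SE 0.04) for Hspa1b. Hsph1, the HSP110 nucleotide exchange factor of HSP70, rose from 260 ± 7.70 to 452.7 ± 3.85 CPM (log2 fold change 0.80, SE 0.03). Dnajb1, the HSP40 that serves HSP70 in disaggregation, stood at 34.8, 33.4 and 35.6 CPM with DMSO and at 59.8, 62.2 and 63.2 CPM with YJ1206 (log2 fold change 0.84, SE 0.05).

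Among the abundant chaperones the constitutive HSP90 had a larger fold change than the inducible one, a difference that was not tested. Hsp90ab1 measured 2926, 2984 and 2894 CPM with DMSO and 5390, 5474 and 5470 CPM with YJ1206 (log2 fold change 0.89, SE 0.02, edgeR adjusted p = 1.59e-24). Hsp90aa1 went from 2184 ± 36.3 to 2909 ± 22.0 CPM (log2 fold change 0.41, SE 0.02), and Hspa8 from 1496 ± 33.6 to 2011 ± 19.0 CPM (log2 fold change 0.43, SE 0.02). Dnaja1 and Dnajb4, further HSP40 cochaperones, rose by 0.67 and 0.54 on the log2 scale, and Hspa4, an HSP110 family member, by 0.54.

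**Figure D1:**
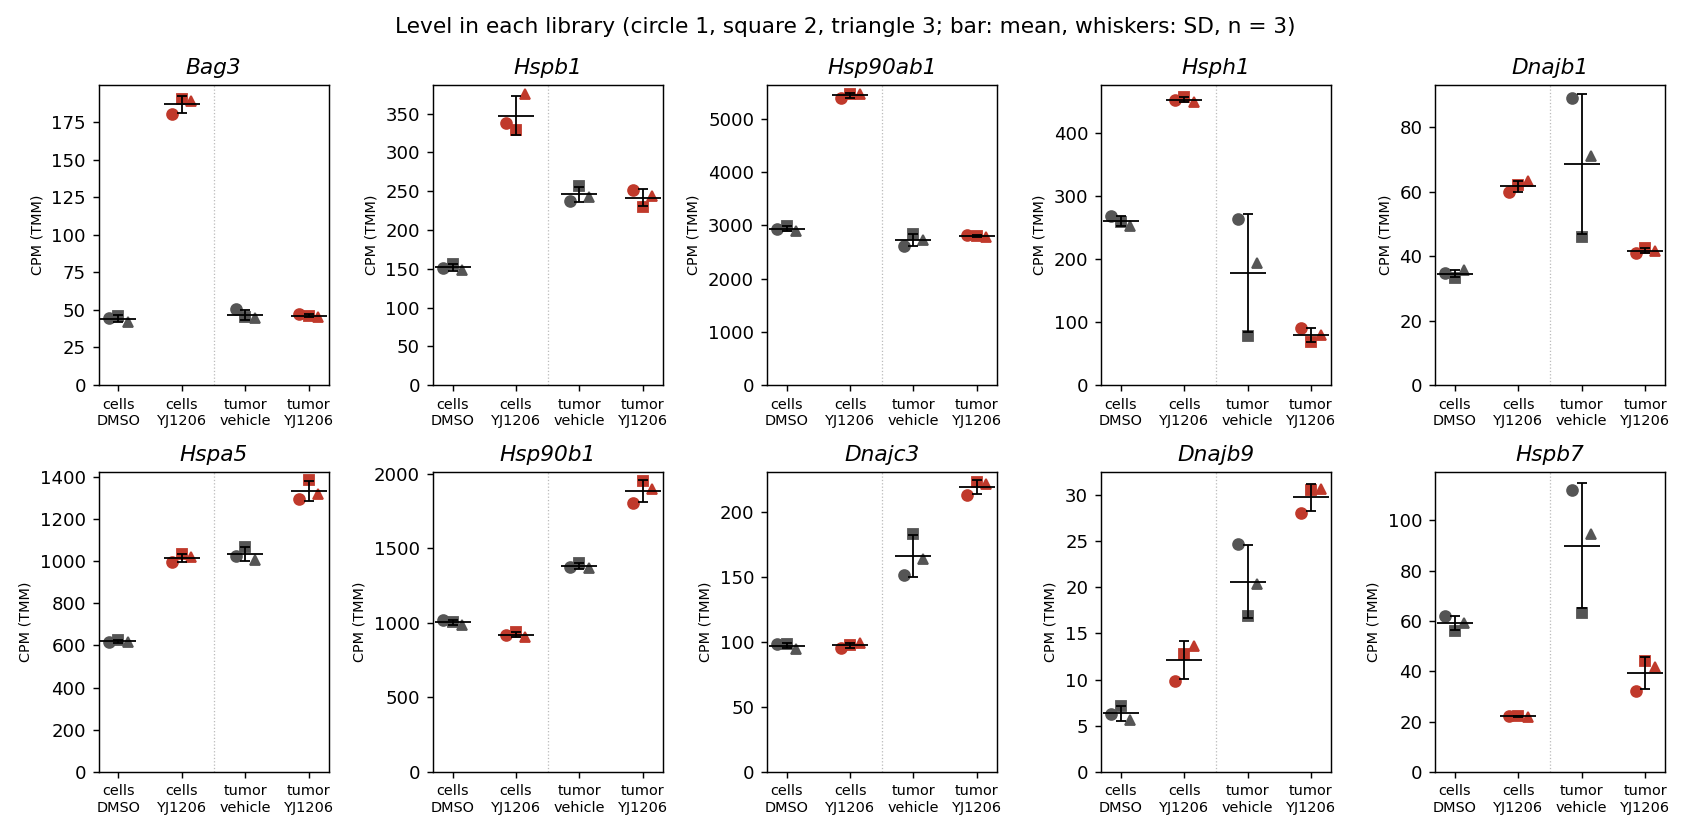
Level of 10 members in each library as TMM-scaled CPM (vertical axes from 0), for cells with DMSO or YJ1206 and tumors with vehicle or YJ1206; symbols are libraries 1 to 3, the bar is the mean and the whiskers the SD. Bag3, Hspb1, Hsp90ab1, Hsph1 and Dnajb1 are higher with YJ1206 in cells and not in tumors. Hspa5, Hsp90b1, Dnajc3 and Dnajb9 are higher with YJ1206 in tumors, and of these Hspa5 and Dnajb9 are higher in cells as well.

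Both heat shock factors rose in the cells as well. Hsf2 measured 22.1, 20.4 and 21.8 CPM with DMSO and 51.6, 49.1 and 58.9 CPM with YJ1206 (log2 fold change 1.31, SE 0.07, edgeR adjusted p = 1.13e-15). Hsf1, which encodes the main factor of the heat shock response, went from 50.4 ± 2.52 to 78.0 ± 0.68 CPM (log2 fold change 0.63, SE 0.05). Hspa2, a germline HSP70, had 8 to 16 counts with DMSO and 32 to 36 with YJ1206 (log2 fold change 2.13, SE 0.33), and it reached the minimum for description in cells through the YJ1206 libraries alone.

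How far the rise extended beyond this core depended on the scaling. TMM factors were 1.06 to 1.07 with DMSO and 0.934 to 0.941 with YJ1206, and scaling by library totals moved the median of all genes to -0.20 and log2(TPM + 1) moved it to -0.25. With library totals 32 members were higher and 18 lower (28.0% and 49.7% of all genes), and with log2(TPM + 1), by limma, 27 were higher and 24 lower (21.4% and 52.0% of all genes). The median of the members was 0.29 with TMM, 0.10 with library totals and 0.06 with log2(TPM + 1), above that of all genes under each scaling. All 11 core genes and both heat shock factors were called higher under all 3 scalings. Hspd1 was not: its log2 fold change was 0.16 with TMM, -0.02 with library totals and -0.14 on the TPM scale.

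**Figure D2:**
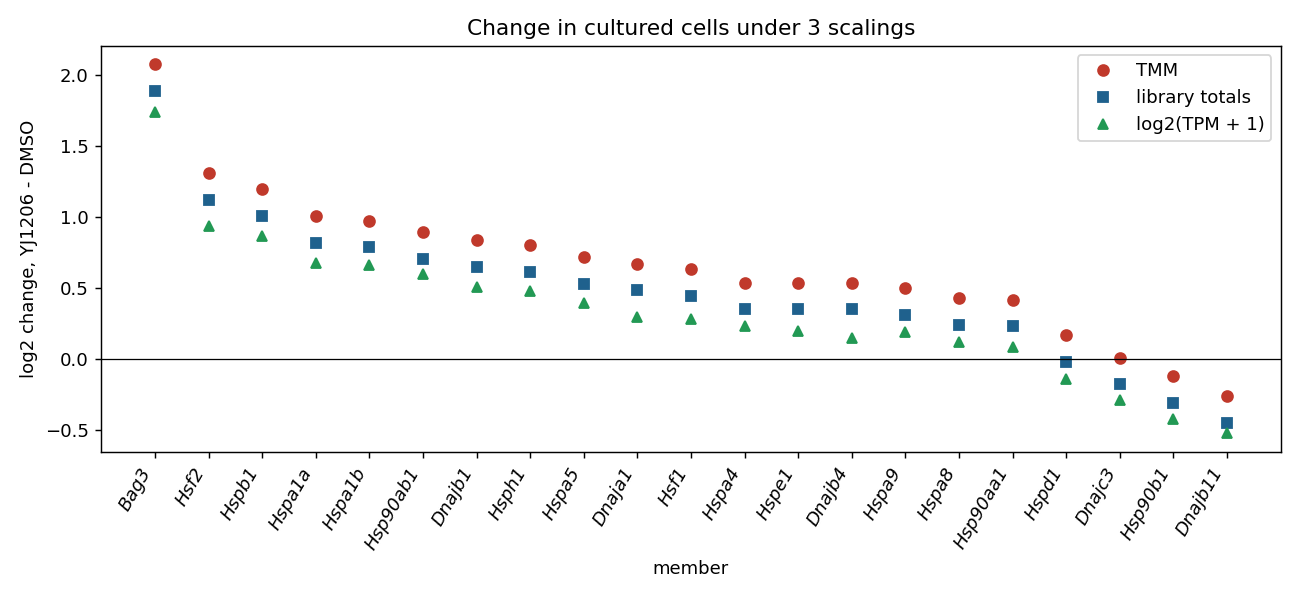
Log2 change between YJ1206 and DMSO cells (vertical axis) of 21 members named by rule, under TMM, library totals and log2(TPM + 1). Bag3 lies at 2.08, 1.89 and 1.74, and every member shown sits lower with library totals than with TMM, which takes Hspd1 and Dnajc3 below 0.

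Outside the core, DNAJ genes of classes B and C moved in both directions in the cells: 5 of 9 were higher and 4 lower in class B, and 13 of 25 higher and 8 lower in class C, beside 37.8% and 38.3% of all genes. Dnajb5 fell by 1.35 on the log2 scale, from 7.48, 6.97 and 6.85 CPM to 2.93, 3.39 and 2.00 CPM. Dnajc14, an ER cochaperone of membrane receptors, went from 58.1, 58.8 and 58.0 CPM to 29.5, 27.7 and 28.7 CPM (log2 fold change -1.03, SE 0.06). Dnajb14, an ER-anchored HSP40, and Dnajb2 fell by 0.96 and 0.97, and Dnajc27 fell by 0.83 on the log2 scale. The largest decrease was that of Hspb7, the cardiovascular small heat shock protein, from 61.9, 56.2 and 59.1 CPM to 22.1, 22.2 and 21.7 CPM (log2 fold change -1.42, SE 0.06, edgeR adjusted p = 1.31e-17). In these cells the 10 skeletal muscle markers summed to 81.7 to 93.6 TPM with DMSO and 21.5 to 26.2 TPM with YJ1206, with Mb, Myh4 and Pvalb at 0 counts throughout, and their part in the result was not tested. Hspa14, a ribosome-associated HSP70, fell by 0.51 on the log2 scale.

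The listed ER members (Hspa5, Hsp90b1, Hspa13, Dnajb9, Dnajb11, Dnajb12, Dnajb14, Dnajc1, Dnajc3 and Dnajc10) did not move together in the cells. The list is partial, since Dnajc14, named above as an ER cochaperone, is not on it. Of the 10 listed, 5 were higher and 4 lower, beside 37.8% and 38.3% of all genes, with a median log2 fold change of 0.09. Hspa5 measured 616, 627 and 617 CPM with DMSO and 997, 1035 and 1021 CPM with YJ1206 (log2 fold change 0.71, SE 0.02, edgeR adjusted p = 3.59e-20). Hsp90b1 went the other way, from 1002 ± 18.2 to 919.1 ± 17.4 CPM (log2 fold change -0.12, SE 0.02). Dnajb9, a cochaperone of HSPA5 that counters IRE1 activation, rose by 0.93 (SE 0.13) from 6.34 ± 0.80 CPM, Dnajb11 fell by 0.27, and Dnajc3, an inhibitor of the kinase PERK, stood at 96.9 ± 1.93 and 97.2 ± 2.13 CPM. Of the 8 mitochondrial members 5 were higher and 2 lower with TMM (37.8% and 38.3% of all genes), but 2 and 4 on the TPM scale (21.4% and 52.0% of all genes). Hspa9, the mitochondrial HSP70, rose by 0.50 and Hspe1 by 0.54 with TMM, and both kept that direction on the TPM scale (0.19 and 0.20).

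In the tumors 5 of the 10 ER members were higher with YJ1206 and the other 5 did not pass the test, while members of the cytosolic core and of mitochondria were lower or did not pass. Of 70 members 7 were higher and 17 lower, beside 11.9% and 14.9% of all 15558 genes tested, and the median log2 fold change was -0.06 beside 0.01 over all genes. The 7 higher were Dnajc25, Dnajb9, Hsp90b1, Dnajc3, Hspa5, Dnajc18 and Dnajc1 (the last named after its value was seen). The groups did not overlap for 34 of the 70 members, beside 44.6% of all genes. In bulk tumor, fewer cells of a type and less RNA per cell cannot be told apart. Marker sums moved with treatment too: the 6 smooth muscle and pericyte markers summed to 64.5 to 87.4 TPM with vehicle and 89.9 to 148 TPM with YJ1206. The 5 adipocyte markers summed to 68.5 to 73.2 TPM with vehicle and 88.6 to 111 TPM with YJ1206. In DMSO cells these 5 markers already summed to 84.2 to 88.4 TPM, with Adipoq and Lep at 0 counts, so this sum does not measure host fat cells. The part of both sums in the member results was not tested.

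Hsp90b1 measured 1371, 1404 and 1370 CPM in vehicle tumors and 1805, 1954 and 1897 CPM in YJ1206 tumors. The groups were separate (log2 fold change 0.45, SE 0.05, edgeR adjusted p = 0.00207). Hspa5 was at 1026, 1069 and 1006 CPM with vehicle and at 1298, 1387 and 1320 CPM with YJ1206 (log2 fold change 0.37, SE 0.05, edgeR adjusted p = 0.00374). These 2 genes and Dnajc25 kept their call when any 1 tumor library was left out.

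Dnajc3 rose from 151, 183 and 163 CPM to 213, 223 and 221 CPM (log2 fold change 0.40, SE 0.08, edgeR adjusted p = 0.00882), a call lost narrowly without library 3 of either group (edgeR adjusted p = 0.0513 and 0.0502). Dnajb9 rose from 24.7, 16.9 and 20.3 CPM to 28.0, 30.6 and 30.6 CPM (log2 fold change 0.53, SE 0.14, edgeR adjusted p = 0.0297), and this call was lost without vehicle library 3 or any 1 YJ1206 library (edgeR adjusted p = 0.0602 to 0.112). Dnajc25 went from 25.3 CPM on average to 37.8 CPM (log2 fold change 0.58, SE 0.08) and Dnajc18 from 31.8 to 41.3 CPM (log2 fold change 0.37, SE 0.09), the latter not called without vehicle library 3 or YJ1206 library 1 or 3 (edgeR adjusted p = 0.0544 to 0.0835). Dnajb11 stood at 81.8 and 87.0 CPM and did not pass the test (edgeR adjusted p = 0.377).

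The promoters of 3 of these ER members hold the ER stress response element, CCAAT and CCACG spaced by 9 bases, on either strand. Promoter windows of RefSeq (250 bases before to 50 after a start, GRCm38.p6) were searched in the 250 bases before the start only. The element occurs in 0.113% of the 32851 windows. Counted by gene, it is in 0.13% of 27025 genes and in 3 of the 63 members that have a window. The runs below are shown since all 3 genes rose in tumors, with the element in capitals. For Hspa5 a shorter run is printed, because a longer transcript of the gene overlaps it; Hsp90b1 has further matches besides the one printed. A match is a description of the sequence and not a measured site.
Hspa5, chr2:34772020-34772048, plus strand: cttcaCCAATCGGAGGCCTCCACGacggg
Hsp90b1, chr10:86705618-86705676, minus strand: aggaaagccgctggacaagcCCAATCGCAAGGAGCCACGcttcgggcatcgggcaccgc
Dnajc3, chr14:118937807-118937865, plus strand: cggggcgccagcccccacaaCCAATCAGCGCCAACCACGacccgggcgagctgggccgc

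In the cells the same 3 genes gave 0.71, -0.12 and 0.00 on the log2 scale with TMM, so that they rose together in the tumors and not in the cells.

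The 17 lower members in tumors included cytosolic, mitochondrial and ribosome-associated chaperones. Hsp90aa1 measured 1191, 1151 and 1170 CPM with vehicle and 822, 848 and 827 CPM with YJ1206 (log2 fold change -0.49, SE 0.05, edgeR adjusted p = 0.0012). Hspa14 went from 85.4, 81.7 and 82.9 CPM to 49.3, 53.0 and 52.8 CPM (log2 fold change -0.69, SE 0.06, edgeR adjusted p = 0.000949). Dnajc9, a histone chaperone, fell by 0.71 (SE 0.11) from 42.5 CPM on average, and Dnajc2, which recruits HSP70 to ribosomes, by 0.59 (SE 0.06) from 113 CPM. Each of these 4 kept its call without any 1 library.

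Of the 8 mitochondrial members 4 were lower and none higher, beside 14.9% and 11.9% of all genes. Hspd1 was at 933, 843 and 890 CPM with vehicle and at 708, 677 and 684 CPM with YJ1206 (log2 fold change -0.37, SE 0.06), and Hspa9 fell by 0.29 (SE 0.05). Dnaja2 and Hspa4, both cytosolic, fell by 0.24 and 0.21, and neither was called without vehicle library 3, YJ1206 library 2 or YJ1206 library 3, nor Dnaja2 without vehicle library 1 (edgeR adjusted p = 0.0508 to 0.124). Dnaja4 fell by 0.86 (SE 0.21) at a low level, 2.00 CPM on average with vehicle and 1.10 CPM with YJ1206, and was called in 1 of the 6 fits with a library left out, that without vehicle library 2. Of its 31-mers 43.3% are shared with other genes, chiefly the neighbour Wdr61.

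Within the cytosolic core, 2 of 11 members passed the test in tumors, Hsp90aa1 and Dnajb1, both lower, with a list median of -0.34. Of all genes 14.9% were called lower. The other 9 did not pass. Vehicle library 1 was high for several of them, and it was also high for 2 sums of host tissue markers. In vehicle libraries 1, 2 and 3 the skeletal muscle markers summed to 934.5, 105.1 and 595.2 TPM. The fibroblast markers summed to 729.1, 220.5 and 526.3 TPM. Their part in the core values was not tested. Hsph1 measured 263, 78.0 and 193 CPM with vehicle and 90.0, 68.1 and 79.3 CPM with YJ1206, so that the groups overlapped (log2 fold change -1.17, SE 0.39, edgeR adjusted p = 0.0609). Dnajb1 was at 89.1, 45.9 and 71.0 CPM with vehicle and 40.9, 42.6 and 41.6 CPM with YJ1206 (log2 fold change -0.72, SE 0.21, edgeR adjusted p = 0.0441), and this call too was kept only without vehicle library 2 when 1 library was left out (edgeR adjusted p = 0.0808 to 0.133 in the other 5 fits). Hspa1a and Hspa1b summed to 401, 168 and 304 CPM with vehicle and 225, 153 and 181 CPM with YJ1206, again overlapping.

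Bag3, by contrast, stood at 50.6, 45.3 and 44.5 CPM in vehicle tumors and 47.0, 45.7 and 45.5 CPM in YJ1206 tumors (log2 fold change -0.02, SE 0.07, edgeR adjusted p = 0.843). Hsp90ab1 stood at 2725 ± 105 and 2800 ± 14.6 CPM, Hspb1 at 246 and 242 CPM, Hspa8 at 1189 ± 136 and 1215 ± 92.1 CPM, and Hsf2 at 16.4 and 16.9 CPM. None of these passed the test. Hsf1 measured 57.9, 37.7 and 53.6 CPM with vehicle and 39.7, 36.3 and 35.8 CPM with YJ1206 (log2 fold change -0.41, SE 0.15, edgeR adjusted p = 0.0887), with the groups overlapping.

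The small heat shock proteins Hspb7, Hspb6 and Hspb8 were lower in YJ1206 tumors or highest in vehicle library 1. Cultured cells expressed the first 2 themselves. In DMSO cells Hspb7 stood at 38.4 TPM and Hspb6 at 24.7 TPM, beside 55.4 and 27.5 TPM in vehicle tumors. Hspb8 had 0 counts in every cell library. Hspb7 measured 112, 63.2 and 94.7 CPM with vehicle and 32.2, 44.2 and 41.7 CPM with YJ1206 (log2 fold change -1.19, SE 0.21, edgeR adjusted p = 0.00754). Hspb6 went from 21.5, 17.4 and 21.4 CPM to 13.8, 12.8 and 13.1 CPM (log2 fold change -0.60, SE 0.11). Hspb8, the partner of BAG3 in autophagy, had 142, 30 and 73 counts with vehicle and 28 to 31 with YJ1206 and did not pass (edgeR adjusted p = 0.101). All 10 skeletal muscle markers summed to 935, 105 and 595 TPM in vehicle libraries 1, 2 and 3 and to 66.1 to 80.7 TPM in YJ1206 tumors, where 2 of the 10 were at or under 3 counts and none at 0 in every library. The 6 fibroblast markers summed to 220 to 729 TPM with vehicle and 159 to 359 TPM with YJ1206. Their part in these values was not tested.

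Without library 3 no tumor call was left. With libraries 1 and 2 of each group alone, edgeR called 0 of 70 members in either direction (0.0% of 15684 genes higher, 0.00638% lower), 15 members had an unadjusted p under 0.05, and the median of the members was -0.06. Since library 3 lay between the other two, log2 fold changes had to stay close to those above, with 0.44 for Hsp90b1, 0.36 for Hspa5, 0.38 for Dnajc3, -0.49 for Hsp90aa1, -0.71 for Hspa14 and -1.20 for Hspb7. Leaving out vehicle library 3 gave 3 higher and 8 lower (4.79% and 7.42% of all genes), and leaving out YJ1206 library 3 gave 3 and 9 (4.8% and 6.96%). Leaving out vehicle library 1 gave 7 and 12 (10.2% and 12.9%), and leaving out vehicle library 2 gave 11 and 23 (16.7% and 19.5%). Leaving out YJ1206 library 1 gave 5 and 12 (7.93% and 10.5%), and leaving out YJ1206 library 2 gave 6 and 9 (7.3% of all genes higher, and 1586 of 15786 lower).

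**Figure D3:**
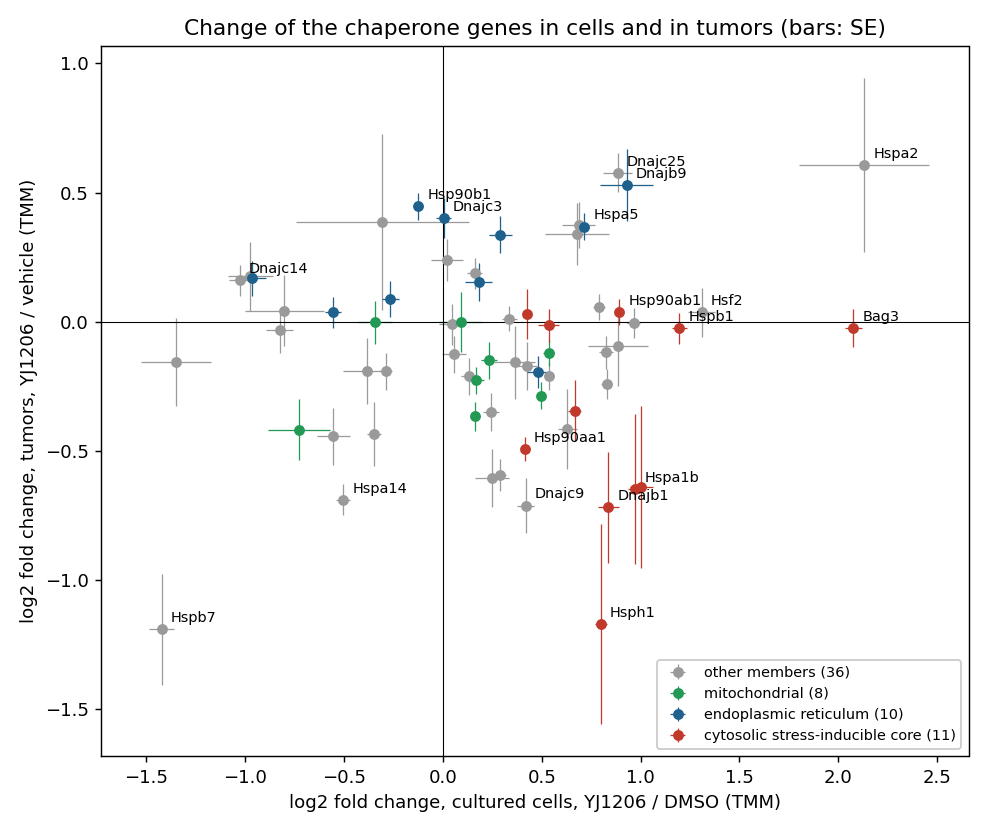
Log2 fold change of the 65 members tested in both experiments, in cells (horizontal axis, YJ1206 over DMSO) and in tumors (vertical axis, YJ1206 over vehicle), with standard errors as bars and colours for the cytosolic core, the ER members, the mitochondrial members and the rest. The 11 core genes all lie to the right of 0 and at or below 0.04 in tumors, and 9 of the 10 ER members lie above 0 in tumors.

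The effect of YJ1206 in tumors was then compared with that in cells in 1 fit over all 12 libraries, as the interaction of treatment and material. Of 71 members tested, the tumor effect was the lower one for 39 and the higher one for 10, beside 26.0% and 20.8% of 15423 genes, with a median difference of -0.41 on the log2 scale. With library totals these counts were 31 and 15, beside 18.7% and 29.9% of genes, with a median of -0.19 where all genes had 0.20. With tumor libraries 1 and 2 alone they were 37 and 10, beside 22.6% and 16.2% of genes. The library batch of the cells enters this difference too. Dose, route and length of exposure also differed between cells and tumors, and the tumors hold host cells. None of these can be told apart from material here.

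All 11 core genes had the lower effect in tumors, beside 26.0% of all genes, also without library 3 (22.6% of all genes). With library totals 10 of 11 did (18.7% of all genes), the exception being Hspa8 (edgeR adjusted p = 0.122). The difference was -2.13 (SE 0.08) for Bag3, -2.00 (SE 0.42) for Hsph1, -1.25 (SE 0.08) for Hspb1, -0.94 (SE 0.05) for Hsp90aa1 and -0.88 (SE 0.04) for Hsp90ab1. Both heat shock factors behaved likewise, at -1.30 (SE 0.12) for Hsf2 and -1.08 (SE 0.17) for Hsf1. Of the 10 ER members 5 had the higher and 2 the lower effect in tumors, beside 20.8% and 26.0% of all genes. The 2 were Hspa5 and Hspa13 (the second named after its value was seen). The difference was 0.54 (SE 0.05) for Hsp90b1, 0.37 (SE 0.08) for Dnajc3 and 1.10 (SE 0.09) for Dnajb14. For Hspa5 the difference was -0.38 (SE 0.06), since its rise in cells was the larger one.

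Of the 65 members tested in both experiments 11 were higher in cells and lower in tumors: Dnaja2, Dnaja3, Dnajb1, Dnajc2, Dnajc9, Dnajc21, Hsp90aa1, Hspa4, Hspa9, Hspb6 and Hspd1. Of the 11307 genes tested in both, 7.23% were called so. Of these members Hsp90b1 alone was lower in cells and higher in tumors, beside 3.63% of genes. Members called alike in both were 5 higher (Dnajb9, Dnajc1, Dnajc18, Dnajc25, Hspa5), beside 6.52% of genes, and 5 lower (Dnajc22, Dnajc30, Hspa14, Hspa4l, Hspb7), beside 9.0%. On the TPM scale 5 of the 11 had a log2 change under 0 in cells: Dnajc2 (-0.02), Dnajc21 (-0.07) and Hspb6 (-0.07) were not called there, and Dnaja3 (-0.14) and Hspd1 (-0.14) were called lower (limma adjusted p = 0.0415 and 0.00327).

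Heat shock elements, inverted repeats of GAA, were also looked for in the promoter windows. The form of 3 units (GAANNTTCNNGAA or TTCNNGAANNTTC, read on both strands) is in 0.466% of all windows (0.514% of genes) and in 3 of the 63 members with a window, Dnajb6 and the divergent pair Hspd1 and Hspe1, which share 1 element between their starts. A form of 2 units (GAANNTTC or TTCNNGAA, part of the longer form) is in 12.8% of all windows (14.5% of genes) and in 14 members (22.2%). These are Hspa1a, Hspa1b, Hspb1, Hspb3, Hspb6, Hspd1, Hspe1, Hsph1, Dnaja1, Dnaja4, Dnajb4, Dnajb6, Dnajc10 and Dnajc27. Bag3, Dnajb1 and Hsf2 have a window and hold no such match in it. Runs are printed for the 3-unit matches and for Hspa1a, Hspa1b and Hspb1, the core members whose match no annotated transcript overlaps, with the elements in capitals. The first 2 are short, since annotated transcripts overlap them.
Hspe1 and, reversed, Hspd1, chr1:55088054-55088081, plus strand: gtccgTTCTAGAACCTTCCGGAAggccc
Dnajb6, chr5:29735847-29735869, plus strand: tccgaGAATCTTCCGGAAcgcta
Hspa1a, chr17:34972233-34972280, minus strand: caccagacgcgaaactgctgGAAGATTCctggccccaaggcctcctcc
Hspa1b, chr17:34959315-34959362, minus strand: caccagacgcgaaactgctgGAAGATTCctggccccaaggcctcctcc
Hspb1, chr5:135887782-135887829, plus strand: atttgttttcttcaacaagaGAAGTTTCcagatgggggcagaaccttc

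The runs of Hspa1a and Hspa1b are the same base for base. Of the 12 tested members with the 2-unit form 10 were higher and 2 lower in cells (median log2 fold change 0.60), and of the 39 with a window but no such match 20 were higher and 13 lower (median 0.13). Over all genes tested in cells, 37.8% were called higher and 38.3% lower. In tumors none of 13 was higher and 3 were lower (median -0.34), and of 43 without a match 6 were higher and 9 lower (median 0.00). Over all genes tested in tumors, 11.9% were called higher and 14.9% lower. Dnajb6, an HSP40 that suppresses aggregation, which falls outside the rule for named genes, rose from 145 to 283 CPM in cells and stood at 122.8 and 122.5 CPM in the tumor groups. Hsp90aa1, Hsp90ab1, Hspa8, Hspa9, Hspa13, Hsf1, Hspb2, Bag4, Dnajc2, Dnajc5, Dnajc11, Dnajc12, Dnajc18, Dnajc22 and Dnajc30 have no window in the table.

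Further folding genes were counted from lists, which were also chosen with earlier results known. Over all genes, 37.8% were called higher and 38.3% lower in cells, or 21.4% and 52.0% on the TPM scale. In tumors the shares were 11.9% and 14.9%, and 0.0% and 0.00638% with libraries 1 and 2 alone. TRiC, the cytosolic chaperonin, and prefoldin, which hands it actin and tubulin, had 12 of 14 genes higher and none lower in cells (median log2 fold change 0.43), led by Pfdn2 (57.2 ± 1.32 to 140.0 ± 4.04 CPM, log2 fold change 1.29) and Cct4 (0.59). On the TPM scale the counts were 7 and 3. In tumors 1 was higher and 7 lower (median -0.22), led by Cct6a (-0.50) and Pfdn6 (-0.41), and with tumor libraries 1 and 2 alone none of the 14 passed the test. Of 21 further HSP70 and HSP90 cochaperones, 11 were higher and 8 lower in cells with TMM, led by Unc45a (1.17) and St13 (1.12), but 3 and 16 on the TPM scale. In tumors 2 were higher and 9 lower, led by Stip1, which joins HSP70 to HSP90 (430.9 ± 54.3 to 253.1 ± 16.3 CPM, log2 fold change -0.77, SE 0.10), and Fkbp5 (-0.56), and none of the 21 passed with libraries 1 and 2 alone.

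ER folding and unfolded protein response genes outside the members had 11 of 21 higher and 7 lower in cells (median 0.17), led by Ddit3 (1.20 to 5.37 CPM, log2 fold change 2.17), which encodes the stress factor CHOP, and Herpud1 (1.55), a factor of ER-associated degradation. In tumors 12 were higher and 1 lower (median 0.34), led by Sil1, the exchange factor of HSPA5 (40.6 ± 7.55 to 72.6 ± 5.52 CPM, log2 fold change 0.84), and P4hb, protein disulfide isomerase (0.78). With tumor libraries 1 and 2 alone none of the 21 passed the test, 10 had an unadjusted p under 0.05, and the median was again 0.34. The shares over all genes were 37.8% higher and 38.3% lower in cells, and 11.9% and 14.9% in tumors with all libraries.

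**Figure D4:**
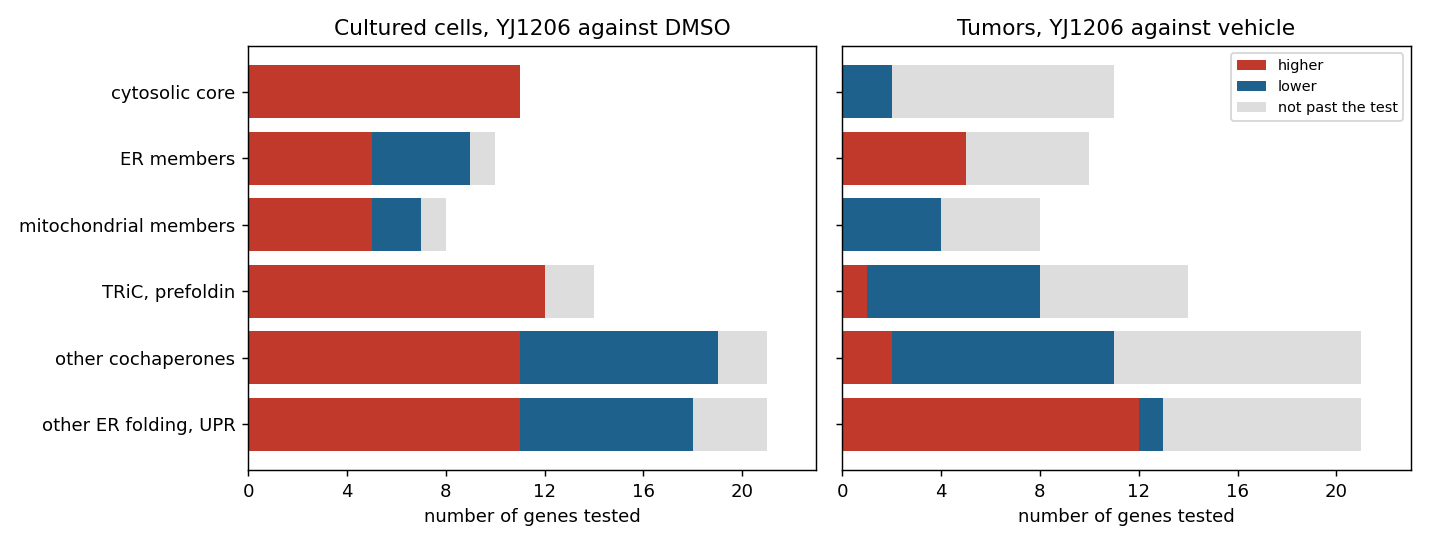
Number of genes called higher, lower or not past the test (edgeR adjusted p under 0.05, horizontal axis) in 6 gene lists, in cells (left) and tumors (right). In cells all 11 core genes are higher, and in tumors 5 of 10 ER members and 12 of 21 other ER genes are higher while 7 of 14 TRiC and prefoldin genes are lower. Of all genes tested 37.8% are higher in cells, and 11.9% are higher and 14.9% lower in tumors.

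The other described members moved within narrower limits. In cells 16 members outside the rule for named genes were higher, by 0.13 to 0.96 on the log2 scale, 8 were lower, between -0.80 and -0.29, and 5 did not pass the test (Bag2, Bag5, Dnajc15, Dnajc16 and Dnajc28). In tumors 1 was higher, 5 were lower, between -0.44 and -0.23, and 26 did not pass, between -0.21 and 0.57. By family, the 6 Bag genes had 4 higher in cells (Bag1, Bag3, Bag4, Bag6) and none called in tumors, and the DNAJ genes of class C had 13 of 25 higher and 8 lower in cells and 4 and 5 in tumors. Calls over all genes were 37.8% higher and 38.3% lower in cells, and 11.9% and 14.9% in tumors. Gene spans of the members called in cells had medians of 20.2 kb for the 42 higher and 21.8 kb for the 17 lower, beside 21.6 and 24.2 kb over all genes called. In tumors the 7 higher members had a median span of 30.5 kb and the 17 lower one of 16.9 kb, beside 21.4 and 24.2 kb over all genes called.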

How the data were processed

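RNA-seq libraries were made after enzymatic removal of ribosomal RNA (the labels name polyA RNA for cells, total RNA for tumors) and sequenced as paired-end reads. The authors deposited estimated counts per gene and TPM values, scaled by the authors for length within each library; the submitters' processing notes name kallisto and GRCm38/mm10, with versions not given. Estimated counts, planned as counts, were rounded to whole numbers. All genes of each experiment were fitted in R 4.3.3 by edgeR's quasi-likelihood F test (version 4.0.16) after TMM scaling and filterByExpr, adjusted by Benjamini-Hochberg over all genes, with a threshold of 0.05; TPM alternatives used limma 3.58.1 on log2(TPM + 1) or log2(TPM + 0.1), which understates changes of low genes. The interaction fit took genes of both tables and shares 1 estimate of spread. DESeq2 1.42.0, library totals, no filter and omitted libraries were alternatives. Steps were tested on simulated data. At this depth 3 counts equal 0.111 to 0.215 CPM, for counting error only. Replicate libraries differed beyond sampling noise (chi-square per gene 1.94 to 49.7) and each was kept. Spans and 31-mers came from GENCODE vM21 (GRCm38).

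Named genes were 24 fixed members, per experiment the 6 called members with the largest rise and the 6 with the largest fall at 1 CPM or more, up to 6 called in opposite directions, and the 2 largest called changes of each further list. Members, lists and tests were chosen with earlier results of these data known.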

Additional observations from a re-analysis of the deposited data

Results flagged for a closer look

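The effect of YJ1206 differed between tumors and cells, by the interaction test in edgeR, for 10 members with the higher and 39 with the lower effect in tumors. Of all genes tested 20.8% had the higher and 26.0% the lower effect. The following values are the tumor effect minus the cell effect on the log2 scale, with 3 libraries in each of the 4 groups. In the cytosolic core the difference was -2.13 for Bag3, -2.00 for Hsph1, -1.68 for Hspa1a, -1.66 for Hspa1b, -1.58 for Dnajb1, -1.25 for Hspb1, -1.04 for Dnaja1, -0.94 for Hsp90aa1, -0.88 for Hsp90ab1, -0.58 for Dnajb4 and -0.43 for Hspa8. The heat shock factors gave -1.30 for Hsf2 and -1.08 for Hsf1. The ER members gave 1.10 for Dnajb14, 0.54 for Hsp90b1, 0.37 for Dnajc3, 0.32 for Dnajb11 and -0.38 for Hspa5. The mitochondrial members gave -0.81 for Hspa9, -0.69 for Hspe1 and -0.56 for Hspd1.

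Among the other named members the difference was 1.16 for Dnajb5, 1.16 for Dnajc14, 1.12 for Dnajb2 and 0.76 for Dnajc27. It was -1.56 for Hspa2, -1.16 for Dnajc9, -1.10 for Dnaja2, -0.91 for Dnajc2, -0.88 for Hspb6, -0.78 for Hspa4, -0.34 for Dnajc18, -0.34 for Dnajc25 and -0.21 for Hspa14. Without a single library the call was lost for Dnajc25 (5 of 12 fits), Dnajc18 (7 of 12 fits) and Hspa2 (vehicle library 2, adjusted p = 0.0523). Dnajc18 and Dnajc25 also lost it with library totals (-0.12 for both, edgeR adjusted p = 0.459 and 0.414) and with tumor libraries 1 and 2 alone (edgeR adjusted p = 0.123 and 0.0839), as Dnajc18 did with no filter (edgeR adjusted p = 0.052). With library totals the call was lost for Hspa8 (edgeR adjusted p = 0.122) and Hspa14 (edgeR adjusted p = 0.981) as well. The difference was -2.54 for Dnaja4, which had 1 to 11 counts in the cell libraries. No explanation of these differences was tested, and the library batch of the cells cannot be told apart from their treatment. Nor can dose, exposure and host cells be told apart from material.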

How the results depend on the processing

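In cells, library totals gave a median of the members of 0.104, log2(TPM + 1) gave 0.055 and log2(TPM + 0.1) gave 0.084, and both TPM scales called 27 members higher. Named members in cells that changed sign were Dnajc2 (-0.021 on both TPM scales), Hspb6 (-0.07 and -0.072), Hspd1 (-0.023 with library totals, -0.143 on both TPM scales) and Dnajc3 (-0.182 with library totals, -0.011 with no filter, -0.29 and -0.299 on the TPM scales, -0.017 to 0.029 with a library left out). In tumors, libraries 1 and 2 alone gave 0 members higher and 0 lower, and leaving out 1 library gave 3 to 11 higher and 8 to 23 lower. Signs changed there for Hsf2 (-0.031 and -0.033 on the TPM scales, -0.026 with libraries 1 and 2), Hsp90ab1 (-0.03) and Hspa8 (-0.041) on both TPM scales, and with a library left out for Bag3 (-0.061 to 0.035), Dnajb4 (-0.041 to 0.01), Dnajc27 (-0.096 to 0.025), Hsf2 (-0.015 to 0.098), Hspa8 (-0.051 to 0.112) and Hspb1 (-0.056 to 0.01). In the interaction, library totals gave a median of -0.193 and 0.007 for Hspa14, and Hspb7 ranged from -0.006 to 0.403 with a library left out. Other counts stayed within 1.5 times, and 71 or 69 members were described at a minimum of 5 or 20 counts. The cause of these changes was not tested.

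Replicate numbers did not pair the samples: deviations of same-numbered libraries correlated at -0.0303 to 0.00316, and no library correlated best with its own number. With the replicate block 42 members were higher and 17 lower in cells, 6 and 15 in tumors, and 10 and 39 in the interaction.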
